A study of Mus musculus with 12 samples.

Results

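The cytosolic ribosomal protein genes encode the protein part of the ribosome that translates nuclear messenger RNAs. They were taken by gene symbol (Rpl or Rps followed by a number and an optional letter, plus Rpsa, Rplp0, Rplp1 and Rplp2), and 84 of the 49315 genes in the count files matched. A mean of at least 10 counts per library was required, which left 81 members, 49 of the large (60S) subunit and 32 of the small (40S) subunit. All 81 also passed the filter on low counts and were among the 15476 genes tested. Rpl10l had 0 counts in every library, Rpl32l a mean of 3 counts and Rpl39l a mean of 4.17 counts, so these fell outside. Just inside was Rpl6l with a mean of 15.3 counts, and the next lowest was Rps4l with 484.4.

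The hearts came from female C57BL/6J mice aged 27 to 29 weeks. Feeding lasted 15 weeks before breeding, with fat giving 10% of the energy of the control diet, and fat giving 45% and sucrose 17% of that of the Western diet. On each diet, hearts were taken from nonpregnant females or from females on postpartum day 1, which gave 4 groups of 3 libraries. Library totals ran from 22754591 to 29492416 counts. Levels are in CPM, read counts scaled to a common library size. The labels do not say that the libraries of a group are separate animals, so p-values measure the spread between these libraries, which may be technical. The title numbers of all postpartum libraries precede those of the nonpregnant ones, so effects of that order and effects of pregnancy cannot be told apart.

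As background, each ribosome carries 1 copy of nearly every ribosomal protein, and cells make these proteins in matched amounts. Their messenger RNAs typically start with a C followed by a run of C and T bases, the 5′ terminal oligopyrimidine (TOP) motif, through which the kinase mTOR and the RNA-binding protein Larp1 control their translation. In the heart, growth of muscle cells in pregnancy or under load needs new ribosomes. Translational control of this kind acts on protein output and need not alter RNA counts, which are what was measured here.

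The start-site sequences show which members carry a TOP-like start in the RefSeq annotation (build GRCm38.p6). Of the 81 members, 59 had an entry. The 30 bases around the annotated start follow, 15 on each side, 5′ to 3′ on the gene's strand. Capitals mark the unbroken run of C and T that begins at the start site. Rps6 carries the phosphorylation sites of S6 kinase, Rpl38 is a 60S protein needed for patterning of the mouse skeleton, and Rps18 came close to the threshold in the tests below.
Rpl35 (chr2:39005117-39005146, minus strand): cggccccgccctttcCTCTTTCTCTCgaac
Rps6 (chr4:86857353-86857382, minus strand): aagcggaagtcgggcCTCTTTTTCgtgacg
Rps18 (chr17:33955651-33955680, minus strand): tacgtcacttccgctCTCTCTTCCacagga
Rpl15 (chr14:18270972-18271001, minus strand): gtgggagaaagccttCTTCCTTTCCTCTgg
Rpl38 (chr11:114668565-114668594, plus strand): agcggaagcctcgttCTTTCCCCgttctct
Rps27 (chr3:90213634-90213663, minus strand): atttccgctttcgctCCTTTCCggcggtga

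No such run of 4 or more bases after a C stands at the annotated start of 3 of the members that changed, nor at that of Rpl3l, the muscle paralog of Rpl3. These are shown wholly in lower case. The run was found in only 13 of the 59 members with an entry, so lacking it does not set them apart. Rpl36, which also rose in the tests below, had no entry. Rps19 has 3 annotated starts and Rpl3l has 2, of which 1 each is shown.
Rps28 (chr17:33824548-33824577, minus strand): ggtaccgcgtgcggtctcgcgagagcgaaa
Rps19 (chr7:24884577-24884606, plus strand): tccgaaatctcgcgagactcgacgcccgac
Rps15 (chr10:80292416-80292445, plus strand): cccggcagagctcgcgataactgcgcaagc
Rpl3l (chr17:24727811-24727840, plus strand): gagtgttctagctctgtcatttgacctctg

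A C at the start with 4 or more C or T after it was found in 13 of 59 members (22.0%) and in 3.0% of 27025 genes with an entry. Annotated starts can lie some bases from the true start, and a start without the run says only that these letters are not at this position. In the window from 250 bases before to 50 bases after the start, on either strand, CCGGAAG (an ETS-type site) was in 24 of 59 members (40.7%) against 9.9% of all genes. CACGTG (an E-box) was in 6 members (10.2%) against 8.1%, and TATAAA was in 6 members (10.2%) against 15.7%. The capitals and the searched letters may overlap, and a match is not a binding site.

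The members spanned a wide range of RNA levels, although the proteins are needed in matched amounts. Per kilobase of exon in control diet nonpregnant hearts, the median member stood at 104 CPM per kb, and 49 of the 81 lay within 2-fold of it. The highest was Rplp1, a protein of the stalk that recruits elongation factors, at 623 ± 38.4 CPM per kb (SD, n = 3). Rpl36, a 60S protein, stood at 418 ± 17.8, Rps15, a 40S protein near the decoding site, at 409 ± 23.0, Rplp0, the base of the stalk, at 362 ± 22.2 and Rpl8, a core 60S protein, at 360 ± 26.0 CPM per kb. These levels use the summed exon length in the files, which reaches far beyond the coding part for some members, so a level per kilobase also depends on the gene model.

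At the low end, Rpl6l stood at 0.67 ± 0.23 and Rps4l, a paralog of Rps4x, at 18.8 ± 2.48 CPM per kb. Rpl13a, a 60S protein, followed at 22.9 ± 1.26, Rps15a at 23.2 ± 1.49 and Rps19, a 40S protein mutated in Diamond-Blackfan anaemia, at 24.4 ± 1.04 CPM per kb. The summed exon length was 4685 bases for Rps19 and 6270 for Rps15a against 499 for Rplp1 and a median of 1659 over the members. The files also hold 280 ribosomal pseudogene entries, which took at most 0.00611% of the counts of a library. Members with pseudogenes carry an uncertainty, because the sources used here do not say how reads matching several copies were counted.

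**Figure D1:**
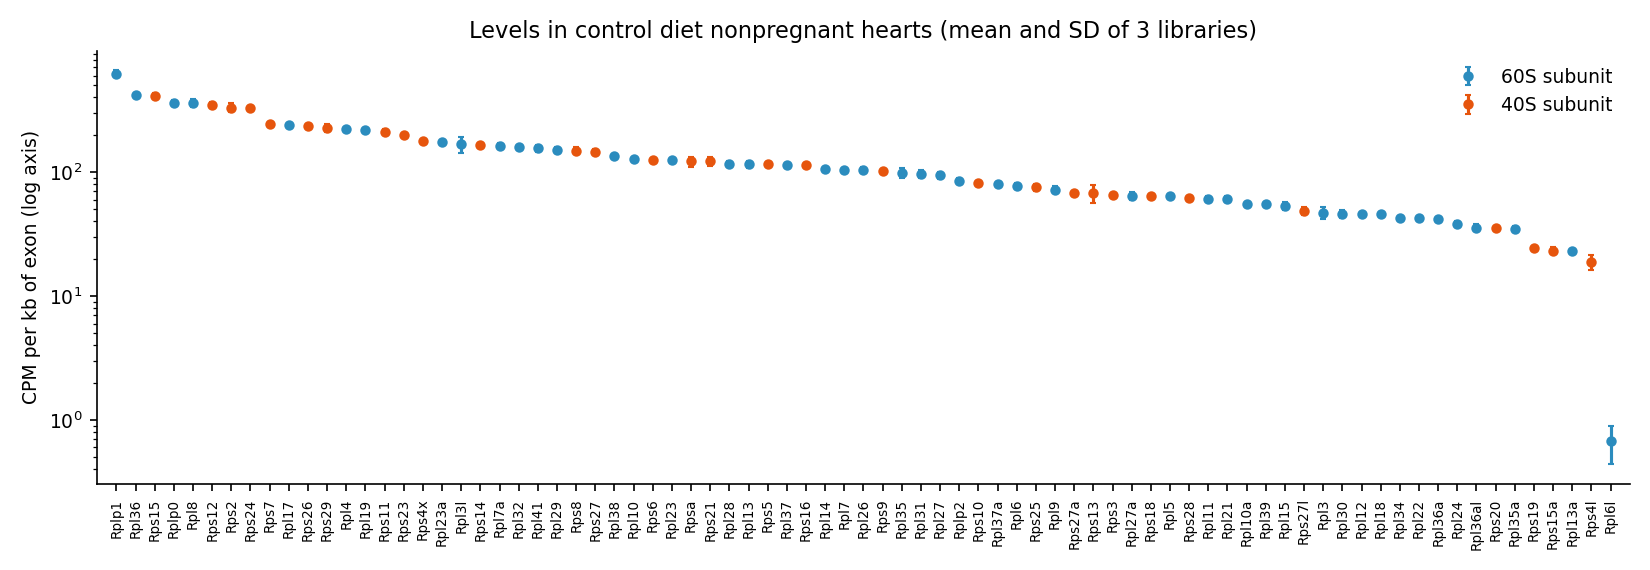
RNA level of 79 of the 81 members in control diet nonpregnant hearts, in CPM per kilobase of exon on a log axis, ordered from high to low. Points are means and bars the SD of 3 libraries, with 60S genes in blue and 40S genes in orange. Levels fall gradually from Rplp1 at 623 to Rps4l at 18.8, with Rpl6l far below at 0.67.

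Together the members took the smallest part of the counts in control diet nonpregnant hearts. Their share was 1.5%, 1.501% and 1.545% in those 3 libraries. In control diet postpartum hearts it was 1.596%, 1.621% and 1.645%. In Western diet nonpregnant hearts it was 1.714%, 1.683% and 1.568%, and in Western diet postpartum hearts 1.597%, 1.718% and 1.608%. By this share of raw totals the 3 control diet nonpregnant libraries lay below each of the other 9, while the other 3 groups overlapped one another. Group means were 1.515 ± 0.026%, 1.621 ± 0.024%, 1.655 ± 0.077% and 1.641 ± 0.067% (SD, n = 3) in that order. The 95% Wilson interval of a library's share reached at most 0.00532 percentage points to either side, for counting error only. On the TMM-scaled sizes used for CPM and tests, the control diet nonpregnant libraries did not stand apart. There the members' mean log2 CPM, without Rpl6l, was 7.428 in control diet nonpregnant replicate 3. It was 7.402 and 7.416 in control diet postpartum replicates 1 and 3, and 7.408 in Western diet nonpregnant replicate 3.

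Both subunits were lowest in control diet nonpregnant hearts. The 60S genes took 0.893 ± 0.017% of the counts in control diet nonpregnant hearts and 0.969 ± 0.045% in Western diet nonpregnant hearts (SD, n = 3). For the 40S genes the values were 0.623 ± 0.009% and 0.686 ± 0.032%. Member by member, the lowest group mean in CPM was that of control diet nonpregnant hearts for 71 of 81 genes. The highest was that of Western diet postpartum hearts for 57 and of Western diet nonpregnant hearts for 20. By share of raw totals the highest group mean was instead that of Western diet nonpregnant hearts, at 1.655% against 1.641% in Western diet postpartum hearts. In bulk tissue, more ribosomal protein messenger RNA per cell and more cells of a type rich in it cannot be told apart.

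**Figure D2:**
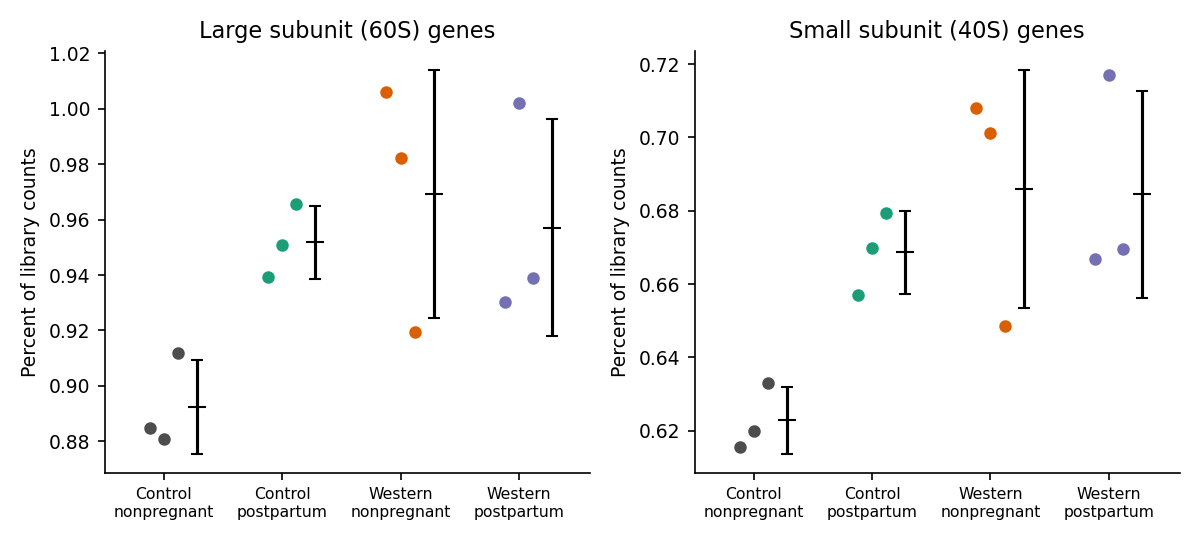
Percent of each library's counts in the 49 large-subunit genes (left) and the 32 small-subunit genes (right), by group. Dots are libraries and the bars beside them mean and SD of 3, and the axes do not start at 0. In both panels the control diet nonpregnant libraries lie below all others on these raw totals.

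The comparison of Western diet postpartum with control diet nonpregnant hearts joins both exposures and had the largest median difference and the most calls of the 8 comparisons. Of the members 5 rose, among them Rps28, Rpl36, Rps19 and Rps15, and no member fell. These 4 rose by 19.2% to 25.5%. The fitted log2 fold change was positive for 80 of 81 members, with a median of 0.14 (a rise of 10.3%), against 49.6% of all 15476 genes and a median of -0.0015. All members share the same libraries, so counts of members here and below are not counts of independent results. Their mean log2 CPM, without Rpl6l, was 7.300, 7.372 and 7.428 in the control diet nonpregnant libraries. It was 7.496, 7.543 and 7.497 in the Western diet postpartum ones. Of all genes tested 1.45% rose and 2.62% changed in either direction in this comparison, by edgeR's quasi-likelihood test with Benjamini-Hochberg adjustment at 0.05.

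Rps28, a small 40S protein at the messenger RNA exit, stood at 87.7, 91.3 and 93.6 CPM in control diet nonpregnant hearts. It stood at 95.8, 99.3 and 99.6 CPM in control diet postpartum hearts. On the Western diet it stood at 103, 104 and 94.3 CPM in nonpregnant and 116, 117 and 109 CPM in postpartum hearts. The Western diet postpartum libraries lay above all 9 others. The log2 fold change was 0.33 (SE 0.057, edgeR adjusted p = 0.012). Its gene (chr17:33819027-33824562) shares 88 exonic bases with Kank3 on the opposite strand, which stood at 62.6 CPM, and without the counting's strand setting their reads there cannot be told apart.

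Rpl36 stood at 161, 173 and 173 CPM in control diet nonpregnant and 184, 189 and 177 in control diet postpartum hearts. On the Western diet it stood at 191, 186 and 176 in nonpregnant and 209, 203 and 201 CPM in postpartum hearts. Here too the Western diet postpartum libraries were the highest 3 of 12, and the log2 fold change was 0.27 (SE 0.056, edgeR adjusted p = 0.0237).

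Rps19 stood at 111, 112 and 120 CPM in control diet nonpregnant and 119, 124 and 126 in control diet postpartum hearts. On the Western diet it stood at 138, 135 and 125 in nonpregnant and 134, 144 and 136 CPM in postpartum hearts. Only 1 Western diet library, at 125 CPM, lay below a control diet library. The log2 fold change was 0.27 (SE 0.058, edgeR adjusted p = 0.0294).

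Rps15 stood at 245, 256 and 273 CPM in control diet nonpregnant and 275, 281 and 269 in control diet postpartum hearts. On the Western diet it stood at 289, 291 and 271 in nonpregnant and at 303, 311 and 308 CPM in postpartum hearts (log2 fold change 0.25, SE 0.057, edgeR adjusted p = 0.0331). Again the Western diet postpartum libraries were above the other 9.

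**Figure D3:**
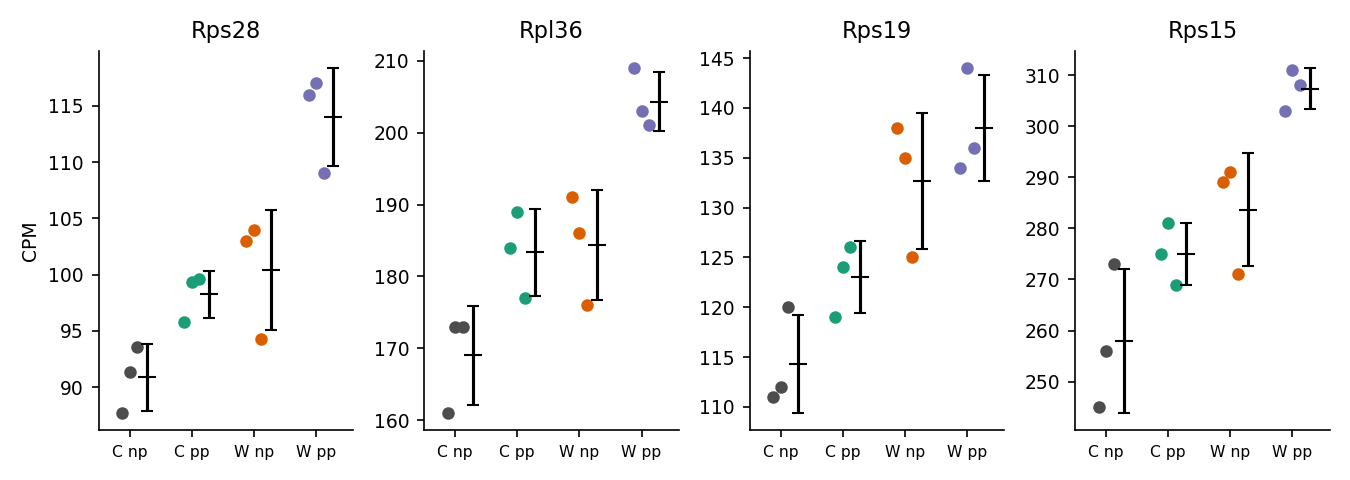
CPM of Rps28, Rpl36, Rps19 and Rps15, which rose in Western diet postpartum against control diet nonpregnant hearts, in each library. C and W stand for control and Western diet, np and pp for nonpregnant and postpartum; dots are libraries, bars mean and SD of 3, and axes do not start at 0. In each panel the Western diet postpartum libraries lie above the control diet nonpregnant ones, for example 109 to 117 against 87.7 to 93.6 CPM for Rps28.

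The members that just missed the threshold differed little from these. Rps18 had a log2 fold change of 0.23 (edgeR adjusted p = 0.0509), Rps27a, which is made as a fusion with ubiquitin, 0.22 (0.0552), Rpl10a 0.20 (0.0552) and Rpl38 0.21 (0.0609). The groups did not overlap, with the Western diet postpartum libraries higher, for 61 of 81 members against 10.3% of all genes tested. An unadjusted p under 0.05 with a higher level was reached by 53 members, against 9.71% of all genes. The sole member with a negative value was Rpl3l at -0.15 (adjusted p = 0.412), and Rps27 stood at 0.0081 (adjusted p = 0.962).

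The 5 calls depended on the libraries used. None of the members passed when Western diet postpartum replicate 1 was left out. The count was 1 when replicate 3 of that group or replicate 2 of the control diet nonpregnant group was left out, and 3 without replicate 3 of the latter. A fit of only the 6 libraries compared called 0 and DESeq2 called 15, while the median stayed between 0.12 and 0.17 under every alternative.

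**Figure D4:**
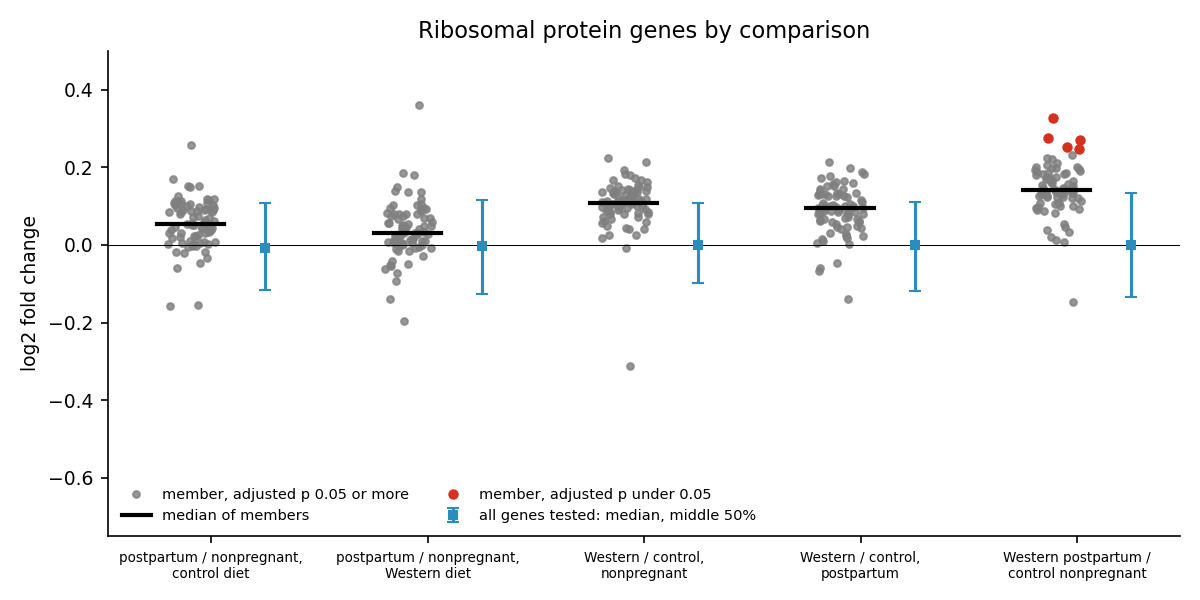
Fitted log2 fold changes of the 81 members (dots) in 5 comparisons, with the members' median as a black line and the median and middle 50% of all 15476 genes in blue. Red dots have an adjusted p under 0.05. The members' median is 0.11 and 0.095 in the diet comparisons and 0.14 in the combined one, against medians near 0 for all genes.

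Diet was compared within each pregnancy state. In nonpregnant hearts 79 of 81 members had positive fold changes on the Western diet, against 49.9% of all genes, with a median log2 fold change of 0.11 (7.81%) against -0.00057. No member passed edgeR's test, nor DESeq2 or limma-voom, and 0.0582% of all genes did. An unadjusted p under 0.05 was reached by 30 members, all higher, against 4.63% of all genes that were higher at that level. The smallest adjusted p was that of Rps19 at 0.21 (SE 0.058, edgeR adjusted p = 0.268). Rpl39, which lines the peptide exit tunnel, stood at 0.19 and Rpl22, an RNA-binding 60S protein, at 0.18 (adjusted p = 0.314 each). Rpl22 stood at 127, 122 and 120 CPM in control diet nonpregnant and at 147, 138 and 134 in Western diet nonpregnant hearts, without overlap. Negative values were those of Rpl6l at -0.31 (adjusted p = 0.854), whose counts are low, and Rps13 at -0.0093 (adjusted p = 0.990).

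In postpartum hearts 77 of 81 members had positive fold changes on the Western diet, against 49.9% of all genes, with a median of 0.095 (6.78%) against -0.00056. edgeR called 0 of them where 0.879% of all genes passed, limma-voom called 0 and DESeq2 called 3. An unadjusted p under 0.05 was reached by 25 members, all higher, against 7.83% of all genes. The groups did not overlap for 52 members, all higher on the Western diet, against 9.85% of all genes. These CPM rest on TMM scaling, with factors of 1.024, 1.008 and 1.045 in control diet and 0.962, 0.998 and 0.962 in Western diet postpartum libraries. As a share of raw totals the members overlapped between these groups, at 1.596% to 1.645% and 1.597% to 1.718%. No fit on raw totals was run. The smallest adjusted p was that of Rps28 at 0.21 (SE 0.057, edgeR adjusted p = 0.0934), whose values in these groups are given above and did not overlap. The 4 negative values were those of Rps4l at -0.14 (adjusted p = 0.655), Rpl6l at -0.068 (0.960), Rpl3 at -0.059 (0.871) and Rpl36al at -0.046 (0.845).

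Averaged over both states, the Western diet raised Rps19 by 0.19 on the log2 scale (SE 0.041, edgeR adjusted p = 0.0389) and Rps28 by 0.18 (SE 0.040, adjusted p = 0.0467). Of all genes 0.989% rose and 1.38% changed in this comparison. Rpl22 stood at 0.16 (adjusted p = 0.0665). The fold change was positive for 79 of 81 members with a median of 0.10, against 49.9% and a median of -0.00042 over all genes, and 52 had an unadjusted p under 0.05, all higher, against 7.42% of all genes. Both calls were lost when almost any single library was left out: the count was 2 only without Western diet nonpregnant replicate 3, 1 without replicate 3 of control diet nonpregnant or replicate 2 of Western diet postpartum hearts, and 0 without each of the other 9. DESeq2 called 18 members and limma-voom 3.

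Pregnancy was compared within each diet. On the control diet 70 of 81 had positive values in postpartum hearts, with a median log2 fold change of 0.053 (3.73%), against 48.2% and a median of -0.0068 over all genes. Leaving out control diet nonpregnant replicate 3 brought the median to 0.083 and the positive values to 75, and leaving out replicate 1 of that group with control diet postpartum replicate 3 brought them to 0.036 and 56. edgeR, DESeq2 and limma-voom each called 0 members, and edgeR called 0.239% of all genes. An unadjusted p under 0.05 was reached by 3 members with a higher level, against 6.44% of all genes, and by 1 with a lower level, against 6.04%. Those higher were Rpl41 at 0.15 (adjusted p = 0.339), Rpl3 at 0.26 (0.368) and Rpl36al at 0.17 (0.390). The one that was lower was Rps27, a 40S zinc-finger protein, at -0.16 (SE 0.061, edgeR adjusted p = 0.312). Rps27 stood at 147, 151 and 160 CPM in control diet nonpregnant and at 133, 138 and 139 CPM in control diet postpartum hearts. These groups did not overlap, whereas Western diet hearts stood at 165, 157 and 143 and at 151, 156 and 153 CPM.

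On the Western diet 63 of 81 members had positive values postpartum, with a median of 0.031 (2.16%), against 49.3% and a median of -0.0026 over all genes. The members' mean share of raw totals went the other way, at 1.655% in nonpregnant and 1.641% in postpartum hearts. Leaving out Western diet nonpregnant replicate 3, the library with the lowest share of its group, brought the median log2 fold change to -0.0009. It was 0.053 without replicate 1 of that group and 0.017 without replicate 2 of the Western diet postpartum hearts. None of the members passed by edgeR, DESeq2 or limma-voom, where edgeR called 0.588% of all genes, and at an unadjusted p under 0.05 there were 4 higher and 1 lower, against 8.12% and 6.62% of all genes. Rps28 stood at 0.19 (edgeR adjusted p = 0.158), Rpl36 at 0.15 (0.236) and Rps7, a 40S protein, at 0.14 (0.249). Rpl3l stood at -0.20 (adjusted p = 0.325).

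Averaged over the diets, postpartum values were positive for 70 of 81 members with a median of 0.046, against 49.6% and a median of -0.0011 over all genes. edgeR called 0 members and 1.78% of all genes, DESeq2 called 2 members and limma-voom 0, and at an unadjusted p under 0.05 there were 13 higher and 1 lower, against 9.08% and 8.50% of all genes. The smallest adjusted p values were those of Rps28 at 0.15 (SE 0.040, edgeR adjusted p = 0.0773), Rpl36 at 0.13 (0.101) and Rpl3l at -0.18 (0.161).

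The difference of the pregnancy effect between the diets was tested as an interaction. edgeR, DESeq2 and limma-voom each called 0 members, 0% of all genes passed edgeR's test, and no member reached an unadjusted p under 0.05 where 8.98% of all genes did. Values were positive for 27 of 81 members, with a median of -0.021, against 50.2% of all genes. That median had no stable sign or size: leaving out control diet nonpregnant replicate 1 gave 0.0057, and leaving out replicate 3 of that group gave -0.050. Leaving out a Western diet nonpregnant library gave -0.0049 for replicate 1 and -0.051 for replicate 3. For Western diet postpartum replicates 1, 2 and 3 it gave -0.0099, -0.041 and -0.0088. The smallest p was that of Rps4l at -0.29 (edgeR adjusted p = 0.624), and Rps27 stood at 0.14 (0.639). The comparisons above share libraries, so their fold changes are not independent of one another.

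By role in the ribosome, the 40S members had a median log2 fold change of 0.16 and the 60S members of 0.14 in Western diet postpartum against control diet nonpregnant hearts. Of the 5 genes that rose, 4 were 40S genes and Rpl36 was the 60S gene. The difference between the subunits was not tested. The 4 proteins of the stalk had positive values there, from 0.14 for Rplp2 (adjusted p = 0.219) to 0.19 for Rplp1 (0.127), and Rplp0 stood at 0.16 (0.169). Rplp0, at 569, 594 and 641 CPM in control diet nonpregnant hearts, stood at 658, 680 and 678 in Western diet postpartum hearts, which did not overlap. Rplp0 is widely used as a reference gene for normalisation.

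Rpl5 and Rpl11 bind the 5S ribosomal RNA and, when free, restrain the p53 regulator Mdm2. They stood at 0.12 (edgeR adjusted p = 0.253) and 0.13 (0.227) in the same comparison. Rps6 stood at 0.092 (adjusted p = 0.431), and at 194, 198 and 208 CPM in control diet nonpregnant against 210, 210 and 219 CPM in Western diet postpartum hearts. Rpsa, which is also known as the laminin receptor, stood at 0.16 (adjusted p = 0.288). Rpl13a, a 60S protein also used as a reference gene, stood at 0.091 (adjusted p = 0.514). Of the 20 members linked to Diamond-Blackfan anaemia, an inherited failure of red cell production, 20 had positive values with a median of 0.16. This was near the values of all members, 80 of 81 positive with a median of 0.14. Rps28 and Rps19 were among those that rose.

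Paralog pairs allow the use of alternative ribosomal proteins to be followed. Rpl3l, found mainly in heart and skeletal muscle, replaces Rpl3 at the peptidyl transferase centre of muscle ribosomes. Per kilobase, Rpl3l exceeded Rpl3 in every library. Rpl3 stood at 47.2 ± 5.19, 56.4 ± 5.35, 47.8 ± 1.00 and 54.1 ± 9.52 CPM per kb (SD, n = 3) in control diet nonpregnant, control diet postpartum, Western diet nonpregnant and Western diet postpartum hearts. Rpl3l stood at 168 ± 25.5, 151 ± 5.77, 174 ± 6.11 and 151 ± 8.33 CPM per kb in the same order.

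The part of Rpl3l in the sum of the pair was lower postpartum on both diets. It was 77.8%, 75.7% and 80.4% in control diet nonpregnant hearts and 75.4%, 72.4% and 70.4% in control diet postpartum hearts. It was 77.8%, 78.6% and 78.9% in Western diet nonpregnant hearts and 74.3%, 70.9% and 76.2% in Western diet postpartum hearts. Within each diet the groups did not overlap, and the ratio itself was not tested. Neither gene alone passed: averaged over the diets Rpl3 stood at 0.22 (SE 0.079, edgeR adjusted p = 0.166) and Rpl3l at -0.18 (SE 0.063, adjusted p = 0.161). The averaged diet difference stood at -0.021 for Rpl3 (adjusted p = 0.945) and 0.030 for Rpl3l (adjusted p = 0.887), with SEs of 0.079 and 0.063.

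**Figure D5:**
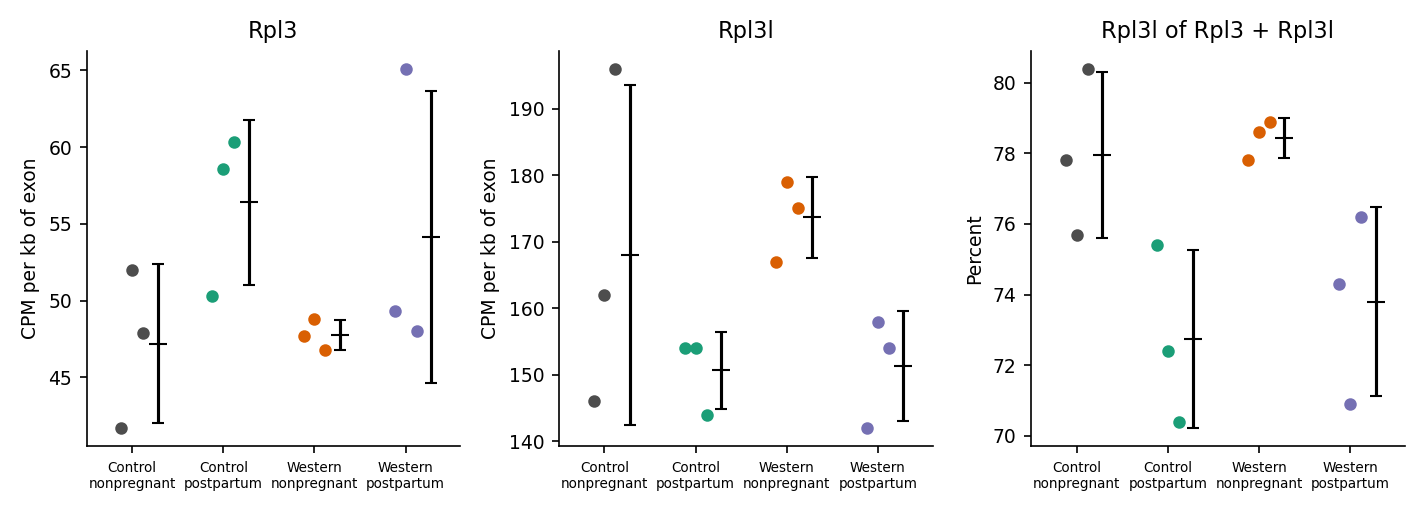
Rpl3 (left) and Rpl3l (middle) in CPM per kilobase of exon, and Rpl3l as a percent of their sum (right), by group. Dots are libraries, bars mean and SD of 3, and axes do not start at 0. Within each diet the percent of Rpl3l is lower in postpartum hearts, with group means of 78.0 and 72.7 on the control diet and 78.4 and 73.8 on the Western diet.

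In the other pairs the balance varied. Rpl39 stood at 55.1 ± 2.15 CPM per kb (SD, n = 3) in control diet nonpregnant hearts while Rpl39l, a paralog of the testis, stood at or below 0.515 CPM in every library, with 0 counts in 2 of them. A count of 0 allows 0.0973 to 0.136 CPM, taken as 3 counts of the library and for counting error only. Rps27 stood at 146 ± 6.39 and its p53-induced paralog Rps27l at 48.7 ± 3.22 CPM per kb. Rpl36a stood at 42.0 ± 0.594 and its autosomal paralog Rpl36al at 35.7 ± 2.33 CPM per kb, so these were closest in level. In Western diet postpartum against control diet nonpregnant hearts Rpl36a stood at 0.13 (adjusted p = 0.223), Rpl36al at 0.12 (0.435) and Rps27l at 0.11 (0.380).

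Neighbouring parts of the translation machinery were taken from lists and compared in Western diet postpartum against control diet nonpregnant hearts. The mitochondrial ribosomal proteins, which build the separate ribosome of mitochondria, had positive values for 44 of 78 genes with a median of 0.011. None passed by edgeR, against 2.62% of all genes. At an unadjusted p under 0.05, 8 were higher and 1 was lower, together 11.5% against 18.2% of all genes. Of all genes 9.71% were higher at that level. Elongation factors and other TOP-containing messages had positive values for 17 of 19 with a median of 0.11. Among them Pabpc1, the poly(A)-binding protein, rose by 0.33 (SE 0.075, adjusted p = 0.0365). Initiation factors had positive values for 28 of 38 with a median of 0.11, and Eif1a (0.52, adjusted p = 0.0197) and Eif2s2 (0.26, 0.0309) rose.

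Ribosome biogenesis factors had positive values for 50 of 67 with a median of 0.084. Rrp12, which exports pre-ribosomal subunits, rose by 0.68 (adjusted p = 0.0303) and Nhp2, of the box H/ACA particle, by 0.40 (0.0194). Regulators of ribosome and translation output were mixed, with positive values for 16 of 28 and a median of 0.025. Eif4ebp1, the mTOR target that blocks Eif4e, stood at 59.1 ± 5.51 and 83.1 ± 4.5 CPM in the groups compared (SD, n = 3), a rise of 0.49 on the log2 scale (edgeR adjusted p = 0.00742). Deptor, an inhibitor of mTOR, rose by 0.30 (adjusted p = 0.0323) and Pdcd4, an inhibitor of the Eif4a helicase, fell by 0.49 (adjusted p = 0.0365). The proteasome subunits, which form another large complex, had positive values for 28 of 31 with a median of 0.067, and Psma7 rose by 0.30 (adjusted p = 0.0308). Genes of at most 1000 bases of exon that were not members had positive values for 541 of 967 with a median of 0.041.

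Gene products linked to the ribosome but named otherwise were left out by the naming rule. Rack1, the 40S scaffold, stood at 0.16 (edgeR adjusted p = 0.127) and Fau, a ubiquitin-like fusion with a 40S protein, at 0.16 (0.199). Rps3a1, a 40S gene with a second digit in its symbol, stood at 0.16 (adjusted p = 0.176) and was named after its values were seen. None of these 3 passed the test.

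Markers of cell types differed in direction in the same comparison. The 11 cardiomyocyte markers all had negative values with a median of -0.16, and Pln, which restrains the calcium pump, fell by 0.27 (adjusted p = 0.0432). Endothelial markers had positive values for 10 of 11 with a median of 0.24, and Pecam1, Eng and Fabp4 rose. The summed endothelial level ran from 1710 to 1800 CPM in control diet nonpregnant, 1790 to 1910 in control diet postpartum, 1840 to 2090 in Western diet nonpregnant hearts. In Western diet postpartum hearts it ran from 2090 to 2270 CPM. Macrophage markers had positive values for 11 of 11 with a median of 0.34 and summed to 287 to 360 and 364 to 426 CPM in the groups compared. Fibroblast markers had positive values for 9 of 10 with a median of 0.23 and summed to 724 to 975 and 946 to 1060 CPM. Lymphocyte markers had positive values for 2 of 7 with a median of -0.55. For smooth muscle and pericyte markers it was 6 of 9 (median 0.019), and for red blood cell markers 4 of 6 (0.024). White adipocyte markers had positive values for 2 of 5 (-0.035) and brown adipocyte markers for 3 of 5 (0.11). None of the cardiomyocyte, endothelial, macrophage and fibroblast markers was at 0 in a whole group. The part of any of these lists in the members' values was not tested.

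Mitochondrially encoded genes took 20.02 ± 0.24% of counts in control diet nonpregnant, 19.3 ± 0.14% in control diet postpartum hearts (SD, n = 3). The values on the Western diet were 20.9 ± 0.42% and 21.1 ± 0.59%. With library sizes taken without them the members' count of calls was 5 in the combined comparison, as before. Control diet postpartum replicate 3 carried fat-cell markers, with white adipocyte markers summing to 141 CPM where the other 11 libraries reached at most 20.2 CPM. Without it and control diet nonpregnant replicate 1, 2 members rose in the combined comparison and 0 in the averaged diet comparison.

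The members varied little between libraries of a group. Their median biological coefficient of variation was 5.92%, from 5.2% to 19.1%, against 9.24% over all genes tested. The 19.1% was that of Rpl6l, the member with the fewest counts, and no comparison with genes of similar counts was made. Members of median exon length or shorter had a median log2 fold change of 0.15 and longer ones of 0.14 in the combined comparison. Exons of 35 members overlap another gene's exons, and for 13 that gene reached 1 CPM.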

How the data were processed

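RNA was sequenced from 12 mouse heart libraries. Per the labels' protocols, extraction used RNeasy kits and library preparation the NEBNext Ultra RNA kit. Per the submitters' processing notes, the authors' tools were STAR 2.5.2b, featureCounts, Subread 1.5.2 and FastQC, with the build GRCm38 (mm10). The values the authors deposited are raw counts per gene, and the sources used here do not give the strand setting, annotation release or multi-mapper handling. Files were joined by gene identifier, and 48970 of 49315 genes had a symbol.

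edgeR 4.0.16 (R 4.3.3) filtered genes with filterByExpr by group (minimum count 10, minimum total 15), scaled by TMM and fitted all 12 libraries in 1 quasi-likelihood model. The F test was two-sided, with Benjamini-Hochberg adjustment over 15476 genes within each of 8 comparisons and a threshold of 0.05. Each SE is the absolute log2 fold change divided by √F. The procedure was tested on simulated data. CPM use TMM-scaled sizes; shares use raw totals. Alternatives were DESeq2 1.42.0, limma-voom (limma 3.58.1), other scalings and filters, and libraries left out.

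Members, lists and the naming rule were chosen with earlier results of these data known. The rule names every member past the threshold, otherwise the 3 with the smallest p per direction, a fixed set of paralogs and well-known members, the 5 highest and 5 lowest by level, and up to 4 called genes per direction of each other list. Some genes are not reported here by name, though they stayed in all tests and counts. Replicates were numbered in accession order.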

Additional observations from a re-analysis of the deposited data

How the results depend on the processing

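The members' median log2 fold change moved by less than 0.0476, the pooled SD of their mean log2 CPM within groups, under every alternative in all 8 comparisons. The medians for pregnancy on the Western diet (0.0308), the averaged postpartum effect (0.046) and the interaction (-0.0205) were smaller in size than that limit. For these the limit cannot show that the median was stable. The median ran from 0.118 to 0.172 in the combined comparison and from 0.0879 to 0.120 for the averaged diet effect. For pregnancy on the control diet it ran from 0.036 to 0.0832, for pregnancy on the Western diet from -0.000896 to 0.0528 and for the interaction from -0.0513 to 0.00569, so the sign of the last 2 turned. Counts of members past the threshold moved more. With DESeq2 they were 15 in the combined comparison, 18 for the averaged diet effect, 3 for diet in postpartum hearts and 2 for the averaged postpartum effect. Requiring 1 CPM in 3 or more libraries gave 9 in the combined comparison and 4 for the averaged diet effect, and no filter gave 1 for pregnancy on the control diet and 2 for the averaged postpartum effect. With only the groups compared the combined count was 0. Without control diet nonpregnant replicate 1 and control diet postpartum replicate 3 together it was 2, and that of the averaged diet effect 0. With single libraries left out, counts ran from 0 to 6 in the combined comparison, from 0 to 2 for the averaged diet effect and from 0 to 1 for the averaged postpartum effect. The cause was not tested, beyond the fewer samples in each fit.

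Of 96 values of named members, 7 were past the threshold and 0 of these stayed past it under every alternative; of the other 89, 14 passed under at least 1. Without both control libraries the sign turned for Rpl36al (diet, postpartum, 0.00969), Rps27 (combined, -0.0174), Rpl13a (averaged postpartum, -0.0195), Rpl3l (averaged diet, -0.0315) and Rps27l (averaged diet, -0.00341). With 1 library left out the values spanned 0 for Rps13 (diet, nonpregnant, -0.134 to 0.0798), Rpl36al (diet, postpartum, -0.108 to 0.0112), Rpl3 (diet, postpartum, -0.218 to 0.0204), Rps27 (combined, -0.0137 to 0.0432), Rpl13a (averaged postpartum, -0.00722 to 0.0376), and for the averaged diet effect Rpl3 (-0.0976 to 0.0192), Rpl3l (-0.0144 to 0.0921) and Rpl36al (-0.00417 to 0.0575). None of these values passed the threshold.

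Without mitochondrially encoded genes in the total, the members' share was 1.894% in control diet nonpregnant, 2.007% in control diet postpartum hearts, and 2.093% and 2.082% in the same states on the Western diet. No paired analysis was possible because no number in the labels is shared between groups, and the replicate numbers follow accession order. With 3 libraries a group, a rise of 19.2%, that of Rps15, was large enough to pass in the combined comparison.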
